A study of Saccharomyces cerevisiae with 7 samples.

Results

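The genes described here are the autophagy-related (ATG) genes of the budding yeast Saccharomyces cerevisiae, followed while a culture used up its glucose. They were taken by name, as every gene on the arrays whose symbol is ATG followed by digits alone, with no measured value in the rule. This gave 36 of 5470 named genes, each read by 1 spot. A pair of familiar members stand under other symbols and were counted as partners, ATG6 as VPS30 and ATG24 as SNX4, and ATG44 had no probe in the annotation used. The members were split by known function into a core of 13 genes and 23 others. The core held 5 genes of the Atg1 kinase complex (ATG1, ATG13, ATG17, ATG29, ATG31) and 8 of the 2 conjugation systems (ATG3, ATG4, ATG5, ATG7, ATG8, ATG10, ATG12, ATG16).

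The study took total RNA of the culture at 7 times, from 0 to 20.5 h, and hybridised each against one common reference on an array with 2 channels. The reference was the culture at 0.14 OD with 19 g/L glucose, and at 0 h the label is the same in both channels. Later samples stood at 0.46 OD with 18.7 g/L (9.5 h), 0.80 OD with 17.6 g/L (11.5 h), 1.8 OD with 14 g/L (13.5 h), 3.7 OD with 7.5 g/L (15.5 h), 6.9 OD with 0.2 g/L (18.5 h) and 7.3 OD with 0 g/L (20.5 h). The strain and the number of flasks are not given in the labels, and there was 1 array at each time, with no replicates.

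Autophagy is the process by which a cell wraps part of its cytoplasm in a double membrane, the autophagosome, and delivers it to the vacuole for breakdown. In yeast the Atg1 kinase complex starts the process when nutrients run short. The small ubiquitin-like protein Atg8 is joined to a lipid of the growing membrane by a conjugation system, and the ubiquitin-like protein Atg12 is joined to Atg5 by another that shares the activating enzyme Atg7. In selective autophagy, receptors tie a chosen cargo to Atg8, such as mitochondria, peroxisomes, endoplasmic reticulum or the vacuolar enzymes of the cytoplasm-to-vacuole targeting (Cvt) route. Many ATG genes are known in yeast to be kept low in rich medium and to rise in starvation.

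Each value is a log2 ratio, culture over reference, with each array centred on its median, so that 1 is 2-fold above the reference and -1 is 2-fold below it. The direction of the ratio is likely and not certain, since the labels name no dyes: it rests on which sample is listed as which channel and on general knowledge of this time course. A ratio is relative to the median gene of its array, and a change in a gene's share of the RNA cannot be told apart from a change in total RNA per cell or in the mix of cells. The fitted change given below is the slope of a regression of the 7 values on the fraction of the initial glucose used up. It is the log2 change between full and exhausted glucose, tested with limma and adjusted over 4807 genes with a value on all arrays (Benjamini-Hochberg). The p-values rest on scatter about a line over 7 samples of one time course, treated as independent, and carry no information on how cultures differ. Where a gene had several spots, they scattered with an SD of between 0.19 on the 13.5 h array and 0.45 on the 18.5 h array.

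Most of the ATG genes that could be fitted rose as glucose was consumed, and none passed as fallen. Of the 36 genes, 29 had a value on every array and were fitted. Among these 17 rose and 0 fell, at an adjusted p under 0.05, while over all 4807 genes 19.5% rose and 19.0% fell. The other 12 did not pass. Over the 29 fitted ATG genes the median fitted change was 1.06, and over all genes it was 0.02. The 7 ATG genes with a blank cell (ATG10, ATG19, ATG21, ATG27, ATG33, ATG40 and ATG41) are given by their values below. If the channels ran the other way, every sign here would turn, with 17 ATG genes fallen and 0 risen beside 19.5% and 19.0% of all genes. With hours in place of glucose 7 of the 17 passed, beside 5.53% of all genes, and the 10 lost were ATG1, ATG3, ATG7, ATG26, ATG29, ATG31, ATG32, ATG36, ATG38 and ATG45. With log2 OD 10 passed, beside 12.4% of all genes, and the same list less ATG3, ATG29 and ATG38 was lost. When genes with at least 5 values were admitted, 4 of the 7 passed as well, ATG19, ATG21, ATG33 and ATG40.

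**Figure D1:**
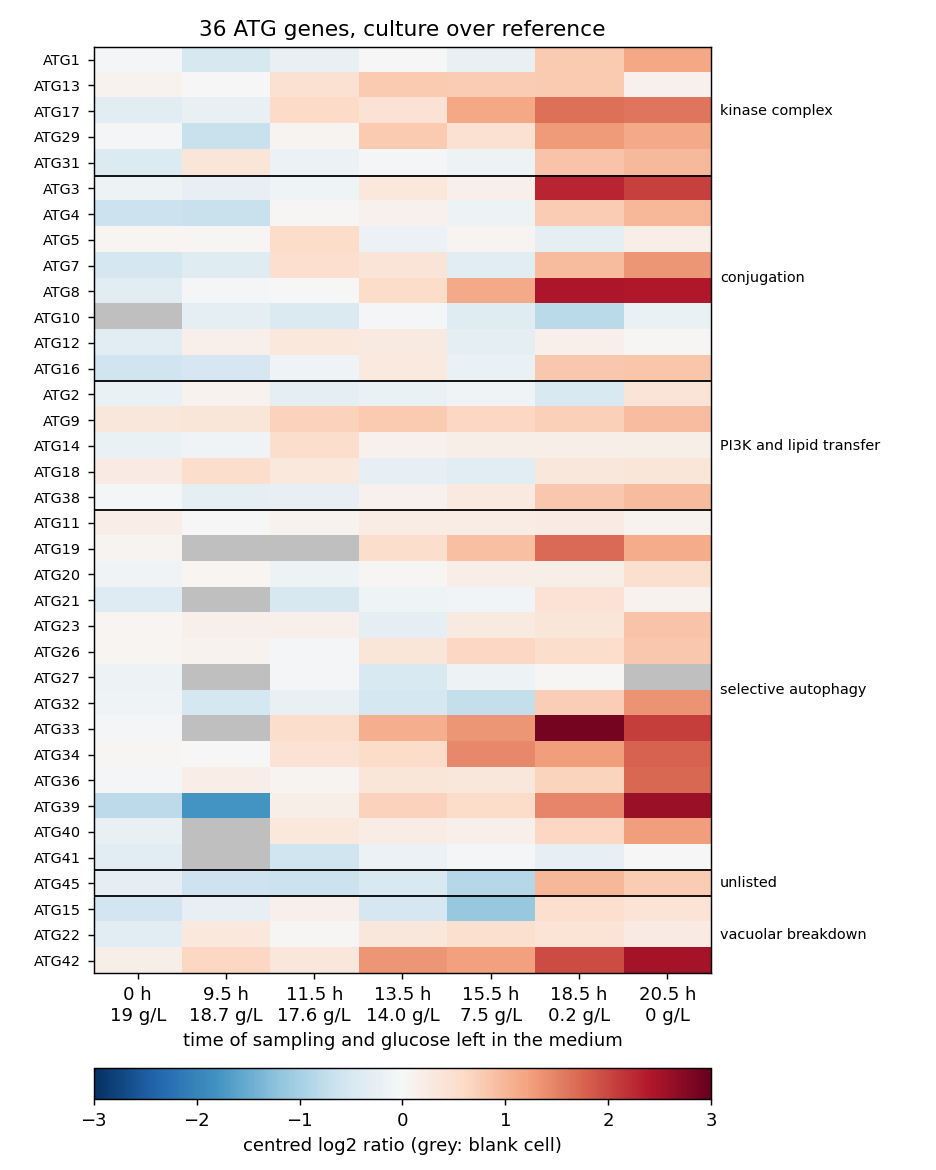
Centred log2 ratio of culture over reference (colour; grey marks a blank cell) for the 36 ATG genes in rows, ordered by role, on the 7 arrays in columns, each labelled with its time and the glucose left. Most of the strong colour lies on the 18.5 h and 20.5 h arrays, with ATG33 highest at 18.5 h (2.87) and ATG39 highest at 20.5 h (2.60).

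High ratios lay mostly on the late arrays. None of the ATG genes with a value was at least 2-fold above the reference at 0, 9.5 or 11.5 h, against 0.0367%, 0.498% and 0.603% of all genes. At 13.5 h 2 of 36 were (ATG33 and ATG42; all genes 1.55%), at 15.5 h 5 of 36 (ATG8, ATG17, ATG33, ATG34 and ATG42; all genes 3.44%), at 18.5 h 9 of 36 (all genes 11.6%) and at 20.5 h 14 of 35 (all genes 10.8%). The 18.5 h count depends on the scaling: it was 16 of 36 with the values as deposited (all genes 17.2%) and 15 of 35 relative to the 0 h array (all genes 16.7%). In the core it was 4 of 13 centred, 9 of 13 as deposited and 8 of 12 relative to 0 h. In the other ATG genes it was 5 of 23, 7 of 23 and 7 of 23. Below the reference by 2-fold or more stood 1 ATG gene at 9.5 h (ATG39; all genes 1.53%) and 1 at 15.5 h (ATG15; all genes 2.04%), with 0 at 0 h (all genes 0.973%), 11.5 h (0.414%) and 13.5 h (0.577%). At 18.5 h and at 20.5 h the count below was 0 of 36 and 0 of 35, while 11.5% of all genes lay there at each time. The median of the ATG genes was -0.14 (0 h), -0.03 (9.5 h), 0.09 (11.5 h), 0.23 (13.5 h), 0.16 (15.5 h), 0.73 (18.5 h) and 0.93 (20.5 h).

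The genes that were at least 2-fold above the reference on both of the last arrays were ATG3, ATG8, ATG17, ATG19, ATG29, ATG33, ATG34, ATG39 and ATG42. They are 9 of the 35 ATG genes with both values, against 7.7% of all genes. For the opposite direction the count was 0 of 35, against 8.07% of all genes.

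**Figure D2:**
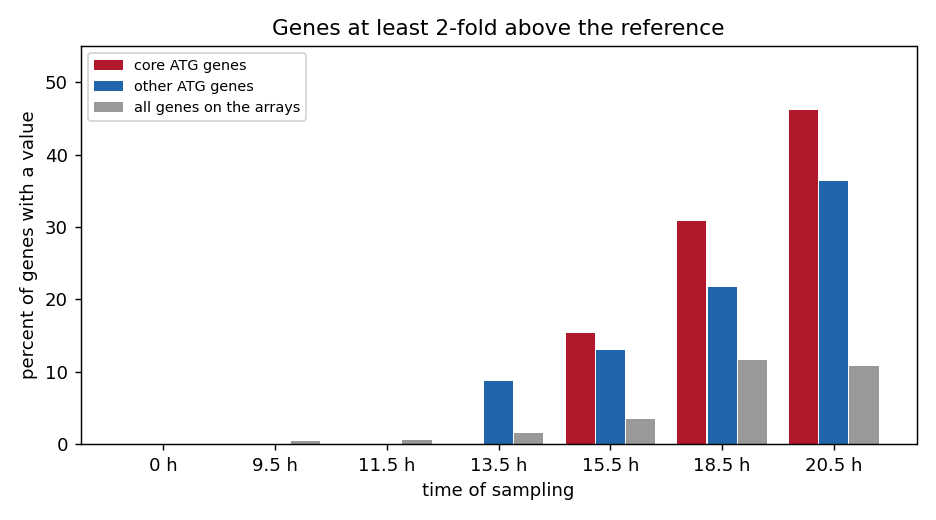
Percent of genes with a value that were at least 2-fold above the reference, by time of sampling, for the core ATG genes, the other ATG genes and all genes on the arrays. At 20.5 h the bars stand at 46.2% (6 of 13 core genes), 36.4% (8 of 22 other ATG genes) and 10.8% (all genes).

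The core was set beside the other ATG genes. Of 12 fitted core genes 9 rose, and of 17 other fitted ATG genes 8 rose, where 19.5% of all genes did. The median fitted change was 1.17 in the core and 0.58 in the others. Both sets spanned a wide range, from -0.21 to 2.58 in the core and from -0.04 to 2.82 in the others, so that the sets overlapped along nearly their whole length. No test of the difference between the sets was made. At 0 h, where both channels carry the same label, the core median was -0.32, with 10 of 12 values below 0, against -0.11 in the other ATG genes, with 15 of 23 below 0, and 48.3% of all genes were below 0. Without the 0 h and 9.5 h arrays 5 core genes and 5 others passed, beside 7.74% of all genes, and the gap between the medians came to 0.31.

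**Figure D3:**
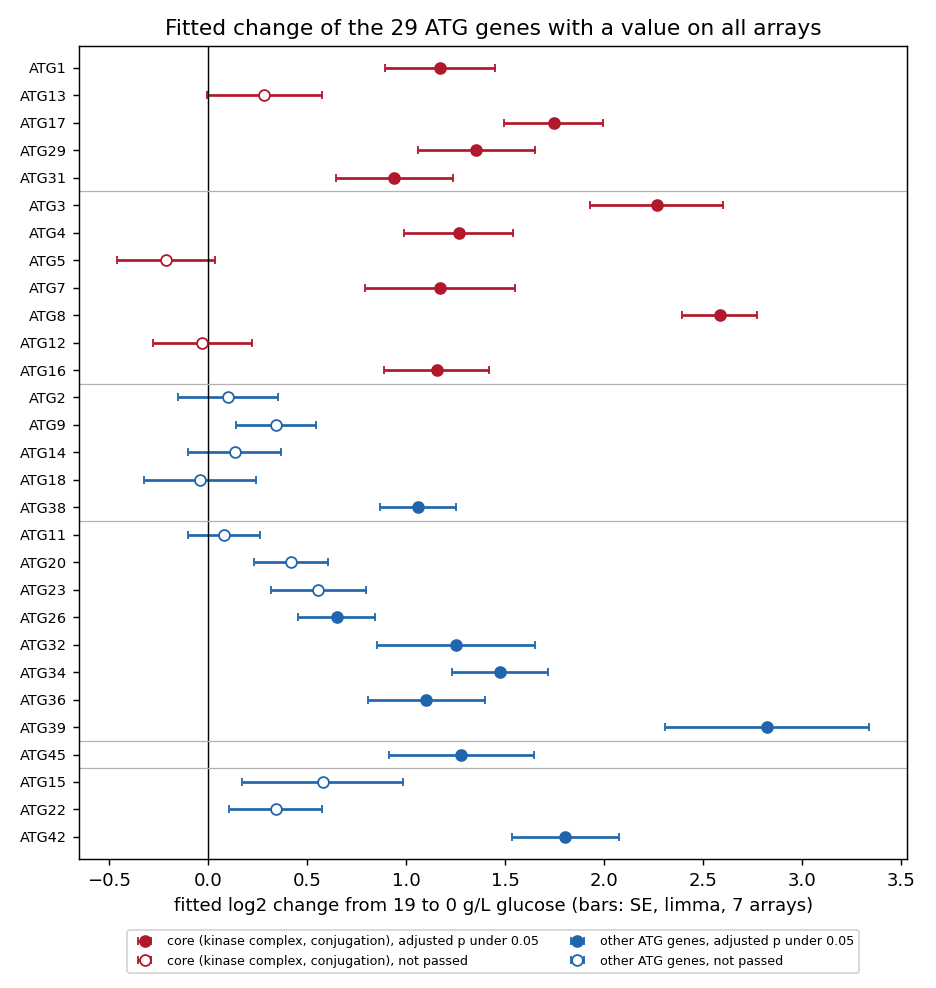
Fitted log2 change between 19 g/L and no glucose (points) with its SE (bars) for the 29 ATG genes with a value on all 7 arrays, grouped by role from the kinase complex at the top to vacuolar breakdown at the bottom. Filled points passed at an adjusted p under 0.05. The open core points are ATG13, ATG5 and ATG12, and all 17 filled points lie to the right of 0.

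Of the kinase complex, 4 of 5 genes rose, beside 19.5% of all genes. ATG17 (YLR423C) encodes the scaffold on which the complex gathers in starvation. Its log2 ratios were -0.35 (0 h), -0.21 (9.5 h), 0.58 (11.5 h), 0.43 (13.5 h), 1.16 (15.5 h), 1.66 (18.5 h) and 1.61 (20.5 h). It was already above 2-fold while 7.5 g/L of glucose was left, and the last arrays lay close together. Its fitted change was 1.74 ± 0.25 (SE, 7 arrays; limma adjusted p = 6.24e-04), which is 3.35-fold.

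ATG1 (YGL180W), the protein kinase itself, followed another course. Its ratios were -0.06, -0.49, -0.22, -0.004 and -0.23 from 0 to 15.5 h, then 0.79 (18.5 h) and 1.17 (20.5 h). No value before 18.5 h was above the reference. The fitted change was 1.17 ± 0.28 (limma adjusted p = 0.00787), and with the 20.5 h array left out it missed the threshold (0.87, adjusted p = 0.0553), as it did with hours (adjusted p = 0.152) or log2 OD (0.0885) in place of glucose.

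ATG29 (YPL166W) and ATG31 (YDR022C), whose products bind the Atg17 scaffold, also rose. ATG29 stood at 0.45 (15.5 h), 1.29 (18.5 h) and 1.13 (20.5 h), with a fitted change of 1.35 ± 0.30 (limma adjusted p = 0.00540). In the RefSeq annotation ATG29 overlaps SET6, which had a fitted change of 1.55, and whether the spot read 1 strand or both is not given, so the share of each in the signal was not tested. ATG31 was at -0.15 (15.5 h), 0.85 (18.5 h) and 0.98 (20.5 h), and its fitted change was 0.94 ± 0.29 (limma adjusted p = 0.0283). That call was lost without the 0 h (adjusted p = 0.0921), 11.5 h (0.0547), 13.5 h (0.0510), 18.5 h (0.125) or 20.5 h array (0.137). Without the 0 h and 9.5 h arrays together, ATG29 was fitted at 0.996 and did not pass (adjusted p = 0.0813).

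ATG13 (YPR185W), the regulatory subunit that TORC1 phosphorylates when nutrients are plentiful, did not pass. It was at 0.09 (0 h), -0.001 (9.5 h), 0.45 (11.5 h), 0.78 (13.5 h), 0.77 (15.5 h), 0.78 (18.5 h) and 0.12 (20.5 h). The values between 13.5 and 18.5 h form a plateau, and the last one is near that of 0 h. A straight line gave 0.28 ± 0.29 (limma adjusted p = 0.454).

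Of the conjugation genes, 5 of 7 fitted rose, beside 19.5% of all genes. ATG8 (YBL078C) encodes the ubiquitin-like protein that is joined to the lipid phosphatidylethanolamine and coats the growing membrane. Its ratios were -0.32 (0 h), -0.05 (9.5 h), 0.008 (11.5 h), 0.56 (13.5 h), 1.14 (15.5 h), 2.43 (18.5 h) and 2.40 (20.5 h). Each array from 9.5 to 18.5 h lay above the one before it, and the last arrays differed by 0.03. ATG8 had the lowest adjusted p of the ATG genes, at a fitted change of 2.58 ± 0.19 (limma adjusted p = 9.01e-05), and a range of 2.51 to 2.64 when 1 array was left out.

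ATG3 (YNR007C), the E2-like enzyme that transfers Atg8 to the lipid, reached nearly the same level by a single step. It was at -0.15, -0.25, -0.12, 0.32 and 0.14 from 0 to 15.5 h, then at 2.29 (18.5 h) and 2.05 (20.5 h). Its step of 2.15 at 18.5 h over 15.5 h was the largest among the ATG genes. The fitted change was 2.26 ± 0.33 (limma adjusted p = 7.14e-04), and with hours in place of glucose it was 2.43 ± 0.76 and did not pass (adjusted p = 0.0646).

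ATG7 (YHR171W), the E1-like enzyme of both conjugation systems, was at -0.54 (0 h), -0.37 (9.5 h), 0.51 (11.5 h), 0.39 (13.5 h), -0.31 (15.5 h), 0.95 (18.5 h) and 1.32 (20.5 h). The 15.5 h value lies below its neighbours on either side. Its fitted change was 1.17 ± 0.38 (limma adjusted p = 0.0325), a call lost without the 0 h (adjusted p = 0.100), 9.5 h (0.0829), 18.5 h (0.115) or 20.5 h array (0.173). ATG4 (YNL223W), the protease that trims Atg8 and later frees it from the membrane, was at -0.16 (15.5 h), 0.75 (18.5 h) and 0.996 (20.5 h), with a fitted change of 1.26 ± 0.27 (limma adjusted p = 0.00524). ATG4 stood at -0.65 (0 h) and -0.67 (9.5 h), and without those arrays it was fitted at 0.93 (adjusted p = 0.119).

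Of the other genes of the Atg12 system, ATG16 passed and ATG12 and ATG5 did not. ATG12 (YBR217W), the second ubiquitin-like protein, ranged from -0.33 (0 h) to 0.33 (11.5 h) and was at 0.15 (18.5 h) and 0.03 (20.5 h). ATG5 (YPL149W), to which Atg12 is joined, ranged from -0.30 (18.5 h) to 0.56 (11.5 h). Their fitted changes were -0.03 ± 0.25 and -0.21 ± 0.25 (limma adjusted p = 0.938 and 0.521). ATG10 (YLL042C), the E2-like enzyme that joins them, was blank at 0 h and below the reference on all 6 other arrays, from -0.80 (18.5 h) to -0.05 (13.5 h). On those 6 arrays its fitted change was -0.23 ± 0.26 (limma adjusted p = 0.509).

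ATG16 (YMR159C), which binds the Atg12-Atg5 pair and holds it at the membrane, was at -0.59 (0 h), -0.51 (9.5 h), -0.10 (11.5 h), 0.29 (13.5 h), -0.20 (15.5 h), 0.82 (18.5 h) and 0.84 (20.5 h). It rose by a fitted 1.15 ± 0.27 (limma adjusted p = 0.00702). When arrays were centred within runs of 40 neighbouring probe IDs it no longer passed (0.67, adjusted p = 0.0543), nor did it without the 0 h and 9.5 h arrays (0.90, adjusted p = 0.136).

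The ATG-named genes listed under phosphatidylinositol 3-kinase and lipid transfer had the lowest median fitted change of the roles. It was 0.14 over 5 genes, of which ATG38 rose, beside 19.5% of all genes. Only ATG14 and ATG38 of these encode kinase subunits. A further 4 subunits fall outside the name rule and are given with the partners, where 1 (VPS34) rose and 3 did not pass. ATG38 (YLR211C), a subunit of the phosphatidylinositol 3-kinase complex that acts in autophagy, was at 0.28 (15.5 h), 0.81 (18.5 h) and 0.96 (20.5 h), with a fitted change of 1.06 ± 0.19 (limma adjusted p = 0.00191), a call lost with hours in place of glucose (adjusted p = 0.0965). ATG14 (YBR128C), the subunit that directs this complex to the site of membrane growth, had its highest ratio, 0.53, at 11.5 h and 0.17 (20.5 h). The lipid transfer protein gene ATG2 (YNL242W) was at -0.45 (18.5 h) and 0.38 (20.5 h).

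ATG9 (YDL149W), whose product is a membrane protein of the vesicles that seed the autophagosome, was above the reference on all 7 arrays, at 0.33 (0 h), 0.37 (9.5 h), 0.70 (11.5 h), 0.78 (13.5 h), 0.62 (15.5 h), 0.72 (18.5 h) and 0.93 (20.5 h). With 0.33 on the array whose channels carry one label, it did not pass (0.35 ± 0.20, limma adjusted p = 0.198). ATG18 (YFR021W), a phosphoinositide-binding partner of Atg2, was above the reference at 0, 9.5 and 11.5 h, below it at 13.5 and 15.5 h and above it again at 18.5 h (0.34) and 20.5 h (0.35).

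Of the selective autophagy genes 8 of 14 were fitted, and 5 of these rose (ATG26, ATG32, ATG34, ATG36 and ATG39), beside 19.5% of all genes. ATG39 (YLR312C), the receptor for the nuclear envelope and the endoplasmic reticulum around it, was at -0.78 (0 h), -1.78 (9.5 h), 0.17 (11.5 h), 0.69 (13.5 h), 0.54 (15.5 h), 1.47 (18.5 h) and 2.60 (20.5 h). It had both the lowest and one of the highest single values among the ATG genes. Its fitted change of 2.82 ± 0.52 (limma adjusted p = 0.00210) was the largest of the 29 and ranged from 2.32 to 3.27 when 1 array was left out. That rank depends on the first arrays. Without the 0 h and 9.5 h arrays ATG39 was fitted at 1.95, below ATG8 (2.58) and ATG3 (2.47). Without the 9.5 h array alone it was at 2.32, below ATG8 at 2.64. ATG40 (YOR152C), a receptor for other parts of the endoplasmic reticulum, was blank at 9.5 h and stood at -0.22 (0 h), 0.15 (15.5 h), 0.62 (18.5 h) and 1.25 (20.5 h). On 6 arrays it was fitted at 0.91 ± 0.30 (limma adjusted p = 0.0375).

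ATG33 (YLR356W), a mitochondrial membrane protein needed for part of mitophagy, was blank at 9.5 h and stood at -0.07 (0 h), 0.53 (11.5 h), 1.08 (13.5 h), 1.32 (15.5 h), 2.87 (18.5 h) and 2.08 (20.5 h). It was the highest ATG gene at 18.5 h, and its fit on 6 arrays gave 2.26 ± 0.32 (limma adjusted p = 8.66e-04). ATG32 (YIL146C), the mitophagy receptor of the outer mitochondrial membrane, ran differently. It was below the reference on each array from 0 to 15.5 h, at -0.11, -0.52, -0.23, -0.52 and -0.73, and above it at 18.5 h (0.73) and 20.5 h (1.34). The fitted change was 1.25 ± 0.40 (limma adjusted p = 0.0311), a call lost without the 9.5 h (adjusted p = 0.0659), 13.5 h (0.0540), 18.5 h (0.117) or 20.5 h array (0.209). ATG36 (YJL185C), the receptor for peroxisomes, was at 0.35 (15.5 h), 0.66 (18.5 h) and 1.73 (20.5 h). Its fitted change was 1.10 ± 0.30 (limma adjusted p = 0.0149), and without the 20.5 h array it was 0.57 (adjusted p = 0.0711).

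ATG19 and ATG34 encode related receptors for Cvt cargo and are next to each other on the chromosome. ATG34 (YOL083W), which serves in starvation, was at 0.05 (0 h), 0.01 (9.5 h), 0.42 (11.5 h), 0.54 (13.5 h), 1.44 (15.5 h), 1.25 (18.5 h) and 1.76 (20.5 h). Its 3 last values were the high ones, and its fitted change was 1.47 ± 0.24 (limma adjusted p = 0.00125). ATG19 (YOL082W), blank at 9.5 and 11.5 h, was at 0.07 (0 h), 0.53 (13.5 h), 0.89 (15.5 h), 1.71 (18.5 h) and 1.11 (20.5 h). On 5 arrays it was fitted at 1.30 ± 0.29 (limma adjusted p = 0.00943). Whether the spots of the pair read each other's RNA was not tested. APE1, the aminopeptidase that is the main cargo of Atg19, rose by 2.17 ± 0.30 and was at 1.23 (13.5 h), 2.11 (15.5 h), 2.58 (18.5 h) and 1.99 (20.5 h), while AMS1, the alpha-mannosidase that both receptors bind, did not pass (0.54 ± 0.23, limma adjusted p = 0.0860).

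Among the remaining genes of the selective autophagy list, ATG26 passed in the fit on all arrays. ATG11 (YPR049C), which links receptors to the kinase complex, stayed between 0.001 and 0.25 on all arrays (fitted change 0.08 ± 0.18, limma adjusted p = 0.740). ATG20 and ATG23, at 0.42 ± 0.19 and 0.56 ± 0.24, did not pass (limma adjusted p = 0.101 and 0.0890), and both passed with the values as deposited, without centring, at 0.60 and 0.73 (adjusted p = 0.0281 and 0.0422). ATG23 also passed with arrays centred within runs of 40 probe IDs (0.89, adjusted p = 0.00738). ATG26, a sterol glucosyltransferase, rose by 0.65 ± 0.19 (limma adjusted p = 0.0234), a call lost without the 0 h (adjusted p = 0.0745), 9.5 h (0.0609), 11.5 h (0.0516) or 20.5 h array (0.0776). ATG21, a phosphoinositide-binding protein of the Cvt route, was at 0.43 (18.5 h) and 0.11 (20.5 h) and was fitted at 0.68 ± 0.22 on 6 arrays (limma adjusted p = 0.0354). ATG27, an Atg9 vesicle protein, was blank at 9.5 and 20.5 h and lay between -0.45 and 0.03 elsewhere. ATG41, blank at 9.5 h, was below the reference on its 6 arrays, from -0.60 (11.5 h) to -0.02 (20.5 h).

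ATG45 (YIL024C), reported in yeast as a receptor for glycogen and not placed in any of the role lists, was below the reference at every time from 0 to 15.5 h, at -0.27, -0.63, -0.65, -0.47 and -0.86, then at 0.98 (18.5 h) and 0.76 (20.5 h). Its step of 1.85 at 18.5 h over 15.5 h was second to that of ATG3. The fitted change was 1.28 ± 0.37 (limma adjusted p = 0.0195), and it missed the threshold with the 18.5 h array left out (0.93, adjusted p = 0.141) or the 20.5 h array left out (1.12, adjusted p = 0.0940).

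In the vacuole, ATG42 (YBR139W), a carboxypeptidase, was above the reference throughout, at 0.17 (0 h), 0.62 (9.5 h), 0.34 (11.5 h), 1.33 (13.5 h), 1.23 (15.5 h), 1.96 (18.5 h) and 2.49 (20.5 h). It was one of the earliest to pass 2-fold, and its fitted change was 1.80 ± 0.27 (limma adjusted p = 7.48e-04). ATG15 (YCR068W), the lipase that opens the inner membrane in the vacuole, was at -1.13 (15.5 h), 0.49 (18.5 h) and 0.41 (20.5 h). It did not pass on the glucose scale (0.58 ± 0.41, limma adjusted p = 0.276). When the last arrays were set against the 5 earlier ones it passed, at 0.91 (adjusted p = 0.0324), as it did without the 15.5 h array (0.77, adjusted p = 0.0306). ATG22, an amino acid exporter of the vacuole, lay between -0.31 and 0.48 and did not pass (0.34 ± 0.23, limma adjusted p = 0.264).

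The genes differed in timing. At 18.5 h, with 0.2 g/L of glucose, 10 of 36 ATG genes stood at least 1 higher on the log2 scale than at 15.5 h, with 7.5 g/L, where 9.84% of all genes did, and 0 stood as much lower, where 9.02% of all genes did. The 10 were 6 of 13 core genes (ATG1, ATG3, ATG7, ATG8, ATG16, ATG31) and 4 of 23 others (ATG15, ATG32, ATG33, ATG45). The median of this difference was 0.91 in the core and 0.31 in the other ATG genes, with -0.002 for all genes. The core median was lower at 15.5 h than at 13.5 and 18.5 h, and the 15.5 h values enter this difference. Whether the low core values lay in the array or in the culture was not tested. The core medians were 0.29 (13.5 h), -0.15 (15.5 h) and 0.82 (18.5 h), and those of the other ATG genes 0.14, 0.23 and 0.53. ATG17, ATG34, ATG39 and ATG42 were instead at least 1 higher at 15.5 h than at 0 h, at 1.51, 1.39, 1.32 and 1.05, and differed by 0.50, -0.19, 0.93 and 0.73 between 18.5 h and 15.5 h. ATG8 and ATG33 were at least 1 higher over both intervals. With 1 array per time these differences have no test, and each carries the scatter of both its arrays.

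**Figure D4:**
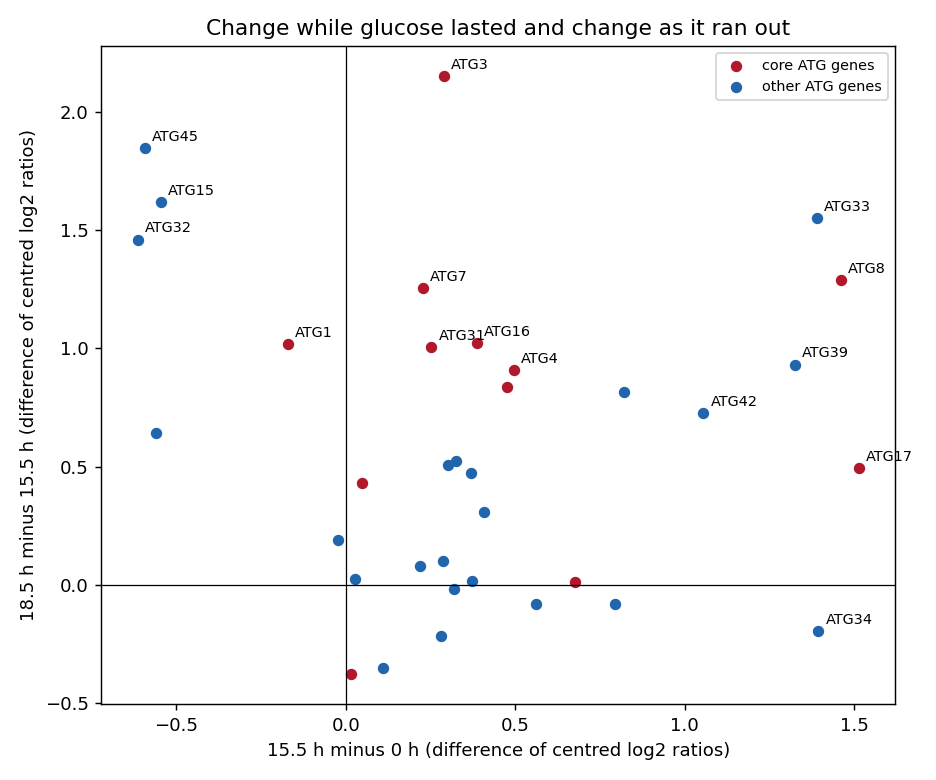
Difference between the 18.5 h and 15.5 h log2 ratios (vertical) against the difference between the 15.5 h and 0 h log2 ratios (horizontal) for the 35 ATG genes with all 3 values, core genes and others in separate colours. ATG3 sits at the top with a difference of 2.15 in the later interval and 0.29 in the earlier one, and ATG34 at the lower right with -0.19 and 1.39. The axes share the 15.5 h value, so an error in it moves a point along a falling diagonal.

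After glucose was gone the ATG genes went both ways. Of the 35 with both values, 9 were at least 0.5 higher at 20.5 h than at 18.5 h, where 13.5% of all genes did, and they were 1 of 13 core genes (ATG10) and 8 of 22 others (ATG2, ATG23, ATG32, ATG34, ATG36, ATG39, ATG40 and ATG42). The largest differences were 1.12 in ATG39 and 1.07 in ATG36. Those at least 0.5 lower were ATG13, ATG19 and ATG33, 3 of 35, where 15.8% of all genes did. A step of 0.5 is close to the SD between spots of one gene at 18.5 h (0.45). The difference also carries the scatter of the 20.5 h array, where that SD was 0.34.

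Partner genes of the pathway outside the ATG names were counted in the same fit. Of 40 listed partners 32 were fitted, of which 8 rose, 1 fell and 23 did not pass, beside 19.5% risen and 19.0% fallen over all genes. In the phosphatidylinositol 3-kinase list VPS34, the catalytic subunit, rose by 1.21 ± 0.29 (limma adjusted p = 0.00782), and VPS15, VPS30 and VPS38 did not pass. VPS30 is the gene also called ATG6, and was at 0.47 (15.5 h), 0.76 (18.5 h) and 0.44 (20.5 h). SNX4, also called ATG24, a sorting nexin that pairs with Atg20, rose by 1.19 ± 0.22 (limma adjusted p = 0.00242). Its partner SNX41 rose by 1.04 ± 0.26, and of the genes for fusion with the vacuole VAM7 rose by 1.60 ± 0.29 and VTI1 by 1.29 ± 0.22, while YPT7, VAM3, YKT6 and CCZ1 did not pass. VAM7 stood at -1.05 (0 h).

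Among vacuolar proteases PRB1 rose by 1.62 ± 0.33 (limma adjusted p = 0.00367), and PEP4, blank at 9.5 h, was at 1.17 (11.5 h), 1.49 (13.5 h), 1.85 (15.5 h), 1.88 (18.5 h) and 1.75 (20.5 h). Of 9 fitted genes of TORC1 and nutrient signalling LST8, a TORC subunit, rose by 0.85 ± 0.26 (limma adjusted p = 0.0238) and the casein kinase gene HRR25 fell by 0.73 ± 0.24 (limma adjusted p = 0.0326). Of 6 fitted transcriptional regulators of ATG genes 0 passed (limma), beside 19.5% risen and 19.0% fallen over all genes. The regulators with the largest fitted change in size were GLN3, at 0.55 ± 0.31, and GCN4, at -0.35 ± 0.29, and UME6, a repressor of ATG8, was at -0.06 ± 0.20.

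Genes with courses like those of ATG39 and ATG8 were sought outside the family. Since 29 of the 4807 genes with a value on all arrays are ATG genes, close profiles elsewhere are no result about the family. The measure was the Euclidean distance between the 7 centred log2 ratios, over genes with a value on all arrays. Nearest to ATG39 were CRC1, at a distance of 0.92, AGP2, MPC54, AGX1 and YER079W, at 1.38. CRC1, a mitochondrial carnitine carrier gene, was at -0.88 (0 h), -1.20 (9.5 h), 0.01 (11.5 h), 0.11 (13.5 h), 0.30 (15.5 h), 1.71 (18.5 h) and 2.44 (20.5 h). Like ATG39 it was low on the first arrays and highest on the last. The distance includes the 0 h array, where both channels carry one label. On that array ATG39 was at -0.78, AGP2 at -1.496, MPC54 at -0.765, AGX1 at -0.956 and YER079W at -0.389. How far the closeness rests on the 0 h values was not tested. The nearest ATG gene to ATG39 was ATG29, at 2.01.

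Nearest to ATG8, a profile added after its values were seen, were CBP4 at 0.52, SSE2 at 0.54, MPF1 at 0.55, COX13 at 0.58 and GSM1 at 0.61. CBP4, an assembly factor of the mitochondrial cytochrome bc1 complex, was at 0.84 (15.5 h), 2.25 (18.5 h) and 2.07 (20.5 h), against 1.14, 2.43 and 2.40 for ATG8. SSE2 encodes a chaperone of the Hsp110 kind and COX13 a subunit of cytochrome c oxidase. The nearest ATG genes were ATG3 at 1.13, ATG17 at 1.26 and ATG42 at 1.28.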

How the data were processed

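Total RNA of 7 culture samples was hybridised against a common reference on arrays with 2 channels. The authors deposited 1 log ratio per probe and array, with the base not stated. Per the labels, scanning used ScanAlyze 2.41. The sources used here do not give how background and dyes were corrected, which spots were filtered or why cells are blank. The deposited values were taken as log2 from the values themselves: at 266 places where ratios of small whole numbers fall, there were 96 values where nearby places predicted 69.3, compared with 270 and 294.8 under a natural log and 2452 and 2427.7 under log10. Deposited array medians ran from -0.033 to 0.216 with no statement on centring. The lowest correlation between arrays over all probes was -0.28 (0 h and 18.5 h).

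Each array was centred on its median, probes were named by the platform annotation (5548 of 6400 with 1 gene symbol, 0 with several, 852 with none), all matched to RefSeq assembly R64 by Entrez ID for locus tags and neighbours, and spots of a gene were averaged. Ratios hold no signal level. limma 3.58.1 in R 4.3.3 (lmFit, eBayes) regressed the ratios of 4807 genes on the share of glucose consumed, with 5 residual and 5.46 prior degrees of freedom. The test was checked on made-up values with known answers. It recovered 55 of 100 genes with a log2 change of 1 and 97 of 100 with a change of 2, and called 7 unchanged genes. The made-up set held far fewer changed genes than passed in the data, where 936 rose and 913 fell. Its adjusted threshold was therefore stricter, and the recovered shares do not carry over to these calls. A gene that did not pass may still have changed. With 1 array per time, a difference between arrays cannot be told apart from a difference between times.

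The members, role lists, partner lists and tests were chosen with earlier results of these data known. Named were all ATG genes, partners that passed or, where none did, the 2 with the largest fitted change, and the nearest profiles. A further few partners were named after their values were seen. Alternatives were the deposited values without centring, centring in runs of 40 probe IDs, hours, log2 OD or a late-against-early step in place of glucose, the median of spots, at least 5 values per gene, each array left out, the first 2 arrays left out and the 0 h array as baseline. No sequence is shown, since no sequence table was used here.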

Additional observations from a re-analysis of the deposited data

How the results depend on the processing

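With 1 array per time the precision cannot be raised by averaging, and no signal level was available. The count of ATG genes that rose was 17, beside 19.5% of all genes. It came to 7 (4 core, 3 other; all genes 5.53%) with hours in place of glucose, 10 (6 core, 4 other; all genes 12.4%) with log2 OD, 10 (5 core, 5 other; all genes 7.74%) without the 0 h and 9.5 h arrays, and 10 to 18 when 1 array was left out (6 to 9 core, 4 to 9 other), with the lowest count without the 20.5 h array (all genes 15%) and the highest without the 15.5 h array (all genes 23.7%). The fall count was 0 under all alternatives. All genes that passed under hours, log2 OD and the leave-one-out fits, other than ATG15 without the 15.5 h array, were among the 17, and 10 of the 17 passed in all 7 leave-one-out fits (ATG3, ATG4, ATG8, ATG16, ATG17, ATG29, ATG34, ATG38, ATG39, ATG42). The median fitted change of 1.06 lay between 0.72 (without the 20.5 h array) and 1.09 when 1 array was left out. The core median exceeded that of the other ATG genes by 0.59, by 0.43 to 0.72 when 1 array was left out and by 0.31 without the 0 h and 9.5 h arrays. The deposited values shifted the fitted change of the median gene to 0.20, against 0.02 after centring, and gave 19 ATG genes risen beside 25.4% of all genes. ATG genes at least 2-fold above the reference at 18.5 h numbered 9 (all genes 11.6%), 16 as deposited (17.2%) and 15 relative to the 0 h array (16.7%). Relative to that array 1 ATG gene was above at 11.5 h (all genes 3.1%) and 0 were below at 15.5 h (2.68%).

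Reversals of direction were confined to genes that did not pass in either fit. ATG12 was at 0.15 as deposited, 0.035 within runs of probe IDs, 0.28 with hours, 0.14 with log2 OD, 0.059 with the late step and between -0.222 and 0.077 when 1 array was left out. ATG18 was at 0.14 as deposited, 0.24 with the late step, 0.29 without the 0 h and 9.5 h arrays and between -0.21 and 0.12 when 1 array was left out. ATG22 was at -0.076 within runs. Without the 0 h and 9.5 h arrays ATG13 was at -0.15 and ATG14 at -0.24. When 1 array was left out, ATG14 ranged from -0.0003 to 0.31 and ATG2 from -0.26 to 0.43. The cause of these differences was not tested. No paired analysis was possible because each time point has 1 array and the labels give no replicate numbers.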
